A study of Mus musculus with 8 samples.

Results

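The comparison described here sets a capture Hi-C map of mouse limb buds labelled ∆BorC1-4 against a map labelled ∆BorC1-2, over the chromosomal interval that holds Kcnj2, Sox9 and the gene desert between them. Its members are the contacts between 10 kb bins with both ends in chromosome 11 from the bin that starts at 110.92 Mb to the bin that starts at 113.02 Mb (genome build mm9), without the 3 bins that start at 111.38, 111.39 and 111.40 Mb. That gives 208 bins and 21736 bin pairs of the 172578 on the map. Pairs within the stretches whose bins start from 109.01 to 110.59 Mb and from 113.35 to 114.87 Mb, called the flanks, served as unedited background and number 24501.

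Capture Hi-C cross-links chromatin, cuts and religates it, enriches the ligation products of a chosen region with probes and counts read pairs that join each pair of places. The series covers CRISPR/Cas9 changes of binding sites for CTCF at the Sox9 locus in forelimb and hindlimb buds of E12.5 embryos. Each genotype gave 1 library from the pooled limb buds of 3 to 8 embryos, all mutants were homozygous, and the labels give G4 embryonic stem cells as the background. Contacts of ∆BorC1-4 and ∆BorC1-2 were compared, and the levels in the libraries labelled ∆BorC1 and ∆CTCF are given beside them.

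The labels ∆BorC1, ∆BorC1-2 and ∆BorC1-4 share the part ∆Bor, which the label ∆CTCF does not hold. In the bin at 111.39 Mb the ∆BorC1, ∆BorC1-2, ∆BorC1-4 and ∆CTCF libraries held 4, 0, 8 and 1 contacts, against 9986, 12396, 18487 and 8862 in the bin to its right. All 4 libraries were thus nearly empty there. Whether this bin fills in a map that keeps its sequence was not tested. By their names, ∆BorC1-4 then extends ∆BorC1-2 as ∆BorC1-2 extends ∆BorC1. The labels used here give neither the positions of the added changes nor whether a line came from 1 clone. The bins of Sox9 (start 112.64 Mb) and Kcnj2 (start 110.92 Mb) were set from general knowledge of the mm9 build, not from the files. A contact map carries no expression values, so the tissue label could not be set against marker genes.

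CTCF is a DNA-binding protein that halts the cohesin complex while cohesin extrudes chromatin loops. Neighbouring stretches between such halts contact themselves more than each other and are called topologically associating domains, and a pair of halted ends shows as a corner of high contact. Sox9 encodes the transcription factor that starts cartilage formation in the limb bud, and much of its regulatory DNA lies in the desert on its upstream side. Kcnj2, at the other end of the desert, encodes an inward-rectifier potassium channel. In RefSeq's gene order (GRCm38) 7 genes lie between them, of which 5 are long non-coding RNAs, 1 is a pseudogene and 1, Gm11677, is protein coding.

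The ∆BorC1-4 library was the deeper of the pair, with 9045698 contacts on the map against 6409072, or 1.41 times as many. Within the region it held 2215595 contacts at least 20 kb apart and ∆BorC1-2 held 1474755. Depth was therefore removed by dividing each count by the mean of its own library at the same distance over the whole map. The quotient is called observed over expected, and a value of 1 is the average for that distance. The share of contacts under 20 kb apart was 34.5% in ∆BorC1-2 and 30.8% in ∆BorC1-4, and contacts of the left with the right flank made up 0.894% and 1.09%. These shares differ between the libraries far from the edited sites as well, and their part in the values below was not tested. With 1 library per genotype there is no test of any difference. The 95% intervals in brackets hold for counting error alone, with each read pair counted as independent, so the flanks are the measure of how far libraries differ without a listed edit.

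In ∆BorC1-4 a place in the middle of the desert, 580 kb left of Sox9 and called the desert site here (112.05 to 112.08 Mb), separated its sides less and had weaker contacts with Sox9, Kcnj2 and the right edge of the domain. Contacts that run across it, from the desert on its left to the desert on its right, were higher than in ∆BorC1-2. Contacts of Kcnj2 were lower over most of the desert, and by most at 111.93 to 111.96 Mb, left of the desert site. The boundary beside Kcnj2 also separated its sides less. Contact of Sox9 with Kcnj2 was slightly lower but inside the range of the flanks, and the insulation of the domain edge beyond Sox9 differed little. The values follow.

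For a map of the whole region, contacts were summed into blocks of 50 kb by 50 kb, and blocks with at least 200 contacts in both libraries were kept. Of 903 such blocks in the region, 35 were higher in ∆BorC1-4 by a log2 ratio of at least 0.32 (3.88%) and 6 were lower by as much (0.664%). In the flanks 2 of 868 blocks were that much higher (0.23%) and 5 were lower (0.576%), and over the whole map 42 of 3290 were higher (1.28%) and 28 lower (0.851%). With these settings the higher blocks of the region are thus well above the background share, while the lower blocks are near it. Both readings depend on the settings. The minimum of 200 contacts kept all 903 possible blocks of the region but 868 of 961 in the flanks. With a minimum of 50 contacts, higher blocks numbered 35 of 903 in the region and 17 of 957 in the flanks, a smaller excess. Lower blocks numbered 9 in the region and 1 in the flanks with expected values from the flanks. After ∆BorC1-4 was thinned to the depth of ∆BorC1-2 they numbered 10 and 3. With blocks of 30 kb they were 34 of 2176 and 10 of 1517. The median log2 ratio was 0.03 in the region, with a range of -0.38 to 0.49, and the flanks ranged from -0.43 to 0.35.

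The 35 higher blocks lay in a pattern. All 35 joined a place left of the desert site with a place right of it, while 48.4% of all 903 blocks do so. The desert site was chosen after its values in these maps were seen, so these shares are a description. Within the desert itself lay 23 of them, and 10 joined the Kcnj2 side with the desert or the Sox9 side to the right. Of the 6 lower blocks, whose share is near the background, 5 had an end between 111.92 and 112.12 Mb, against 17.9% of all blocks. That stretch around the desert site was also chosen after the values were seen, so no pattern is read from it. With expected values taken from the region alone, 66.7% of the blocks past the fold were higher, against 85.4% here.

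**Figure D1:**
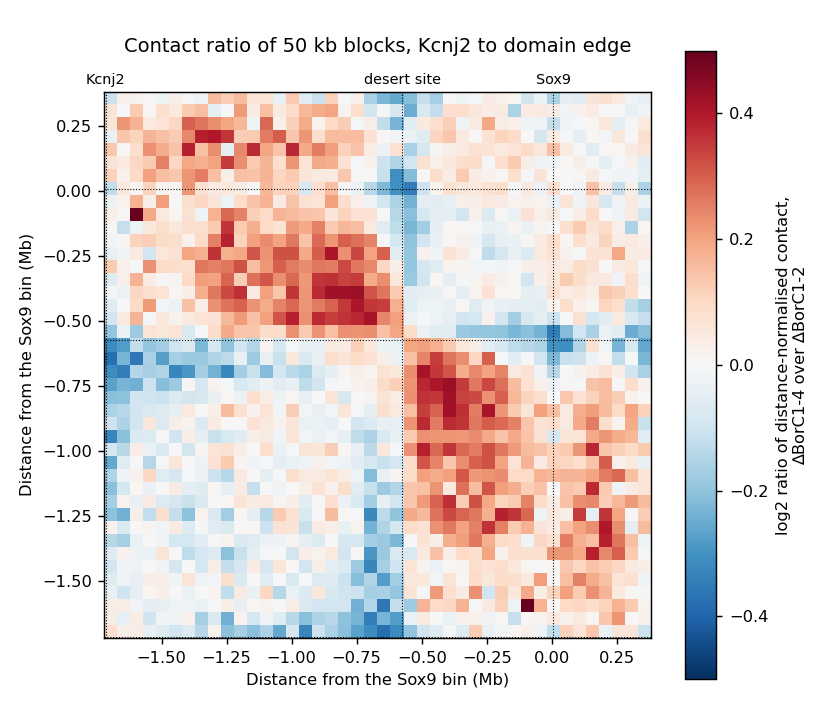
Map of the region with both axes in Mb from the Sox9 bin; each square is a block of 50 kb by 50 kb, coloured by the log2 ratio of observed over expected contacts in ∆BorC1-4 against ∆BorC1-2. Red squares (higher in ∆BorC1-4) fill the field that joins the desert left and right of the desert site at -0.58 Mb, and all 35 blocks that are higher by a log2 ratio of at least 0.32 lie across that site. The site was chosen after its values in these maps were seen.

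The largest rises were moderate. The block that joins 111.02 to 111.07 Mb with 112.52 to 112.57 Mb held 331 contacts in ∆BorC1-2 and 702 in ∆BorC1-4, and its observed over expected rose from 1.10 to 1.54, a ratio of 1.41 (1.23 to 1.60). It stood at 1.30 in ∆BorC1 and 1.54 in ∆CTCF, so ∆BorC1-2 was the lowest of the 4 libraries there. Closer to the desert site, the block from 111.87 to 111.92 Mb with 112.22 to 112.27 Mb went from 1309 to 2632 contacts and from 1.02 to 1.38, a ratio of 1.34 (1.26 to 1.44). Its levels in ∆BorC1 and ∆CTCF were 1.16 and 1.28. The same pattern held in the block from 111.77 to 111.82 Mb with 112.37 to 112.42 Mb, whose observed over expected was 1.14 in ∆BorC1-2 and 1.51 in ∆BorC1-4, beside 1.47 in ∆BorC1 and 1.48 in ∆CTCF. Among the 35 higher blocks ∆BorC1-2 was the lowest of the 4 libraries in 28, or 80.0%, against 33.7% of all 903 blocks. ∆BorC1-4 was the highest of the 4 in 30 of them, or 85.7%, against 24.5% of all blocks. The choice of these blocks by their ratio favours a low ∆BorC1-2 and a high ∆BorC1-4, so these shares are a description. ∆BorC1-4 exceeded ∆BorC1 in 34 of the 35, against 410 of all 903 blocks, a comparison that the choice of blocks also favours.

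Of the 8 lowest blocks, 7 started on the Kcnj2 side and 1 held Sox9, and each had its other end in the desert. The block of Kcnj2, from 110.92 to 110.97 Mb, with 111.97 to 112.02 Mb held 1179 contacts in ∆BorC1-2 and 1359 in ∆BorC1-4, and its observed over expected went from 2.68 to 2.06, a ratio of 0.770 (0.713 to 0.833). It was 2.22 in ∆BorC1 and 2.88 in ∆CTCF, which places ∆BorC1-4 lowest of the 4. The block of 112.07 to 112.12 Mb with 112.62 to 112.67 Mb, which holds Sox9, had 2577 and 2979 contacts. Its observed over expected was 2.93 in ∆BorC1-2 and 2.30 in ∆BorC1-4, beside 2.90 in ∆BorC1 and 2.44 in ∆CTCF, a ratio of 0.785 (0.745 to 0.828) for ∆BorC1-4 against ∆BorC1-2. Here ∆BorC1-4 and ∆CTCF lay together, below the other pair of libraries. The 8 lowest blocks had ratios of 0.770 to 0.802 and the 8 highest 1.32 to 1.41.

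How much the libraries differed depended on distance. The SD of the block log2 ratios in the region was 0.05 at 20 to 100 kb and 0.17 at 500 to 1000 kb. The flanks gave 0.04 and 0.11 for the same distances. At 500 to 1000 kb the spread in the region was therefore 1.56 times that of the flanks, although counting error alone would give a smaller SD in the region (0.06) than in the flanks (0.09). At 1000 to 1500 kb the medians were 0.09 in the region and 0.08 in the flanks, so at that distance both lay above the rest of the map by a similar amount.

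**Figure D2:**
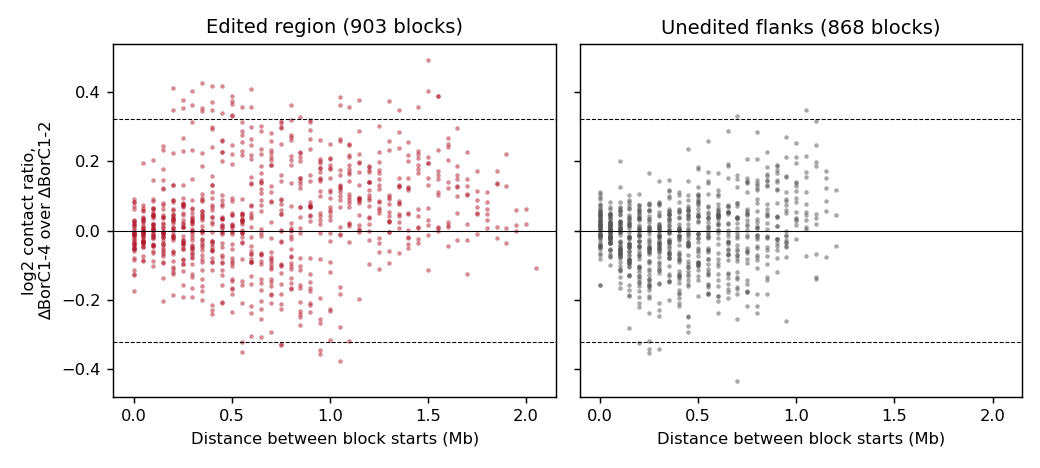
Log2 ratio of observed over expected contacts in ∆BorC1-4 against ∆BorC1-2 (vertical axis) by distance between the block's ends in Mb (horizontal axis), with 1 point per block of 50 kb by 50 kb in the region and in the flanks. The points of the region spread more widely at 500 to 1000 kb, where their SD is 0.17 against 0.11 in the flanks.

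To see which parts of the locus exchanged contacts, the region was divided into 5 zones: the Kcnj2 side (1720 to 1260 kb left of the Sox9 bin), desert 1 (1230 to 880 kb left of it), desert 2 (880 to 580 kb), desert 3 (from 580 kb up to Sox9) and the Sox9 side (390 kb from Sox9 rightward). Of the 15 zone pairs, both pairs that join desert 3 with the desert on its left rose most. Desert 1 with desert 3 held 80322 contacts in ∆BorC1-2 and 137285 in ∆BorC1-4, with observed over expected of 1.48 and 1.70 and a ratio of 1.15 (1.14 to 1.16). Desert 2 with desert 3 held 125467 and 211087, with 1.41 and 1.59 and a ratio of 1.13 (1.12 to 1.14). In ∆BorC1 and ∆CTCF desert 1 with desert 3 stood at 1.49 and 1.62, and desert 2 with desert 3 at 1.56 and 1.56. Both ratios exceed the highest among pairs of 300 kb tiles in the flanks, 1.11.

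Contacts of desert 2 with the Kcnj2 side went down. The Kcnj2 side with desert 2 held 52529 contacts in ∆BorC1-2 and 70230 in ∆BorC1-4, and its observed over expected was 1.45 and 1.30, a ratio of 0.898 (0.888 to 0.908) that lies below the lowest flank pair, 0.931. ∆BorC1 stood at 1.31 and ∆CTCF at 1.51. Desert 1 had ratios of 0.974 with desert 2 and 0.966 with the Kcnj2 side, neither of them outside the flank range. The Kcnj2 side with desert 3 had a ratio of 1.05 and with the Sox9 side 1.07, both inside the range of the flank tiles, but with expected values from the flanks they were 0.994 and 1.12, the latter above 1.11, the highest flank pair with expected values from the whole map. The values with expected counts from the flanks leave out pairs farther apart than a flank is long. Contacts within each zone moved little, with ratios of 0.984 on the Kcnj2 side, 1.00 in desert 1, 1.01 in desert 2, 0.981 in desert 3 and 1.00 on the Sox9 side. Flank tiles with themselves ran from 0.974 to 1.02. The Sox9 side as a whole had ratios of 1.08 with desert 1, 0.986 with desert 2 and 1.00 with desert 3, all inside the range of pairs of flank tiles.

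The insulation score measures separation along the chromosome: it is the log2 of the contacts that cross a bin edge within 200 kb, relative to the mean over the map, and a low value marks a boundary. It was taken from the balanced (KR) maps, in which the authors' processing evened out the coverage of bins. At the desert site, at the edge 580 kb left of Sox9, it was -0.36 in ∆BorC1-2 and -0.10 in ∆BorC1-4, with -0.25 and -0.19 in ∆BorC1 and ∆CTCF. ∆BorC1-4 thus exceeded ∆BorC1-2 by 0.26, where the 273 edges of the flanks differed by -0.09 to 0.08. The score was above that range at every edge from 111.94 to 112.12 Mb, 19 edges in all. Over the whole region 23 of 211 edges lay above the flank range (10.9%) and 4 below it (1.9%).

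The most insulated edge of the middle desert, from 880 to 240 kb left of Sox9, also differed. In ∆BorC1 and ∆BorC1-2 it lay at 112.04 Mb, with scores of -0.27 and -0.37. In ∆BorC1-4 and ∆CTCF it lay at 111.82 Mb, with -0.17 and -0.25. Over this stretch the lowest score of ∆BorC1-4 was therefore the least deep of the 4. At 112.26 Mb, in desert 3, the score went the other way, from 0.03 in ∆BorC1-2 to -0.06 in ∆BorC1-4. Its difference of -0.093 is just below the lowest flank edge, -0.086, but inside the flank range in windows of 100 and 400 kb. The boundary beside Kcnj2, at 110.93 Mb, was -0.70 in ∆BorC1-2 and -0.58 in ∆BorC1-4, against -0.55 in ∆BorC1 and -0.80 in ∆CTCF. The difference there, 0.12, is above every flank edge, and it is so in windows of 100 and 400 kb too. The strongest boundaries stayed: at the Sox9 bin the scores were -1.20 and -1.16, and at 113.02 Mb they were -1.36 and -1.35.

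**Figure D3:**
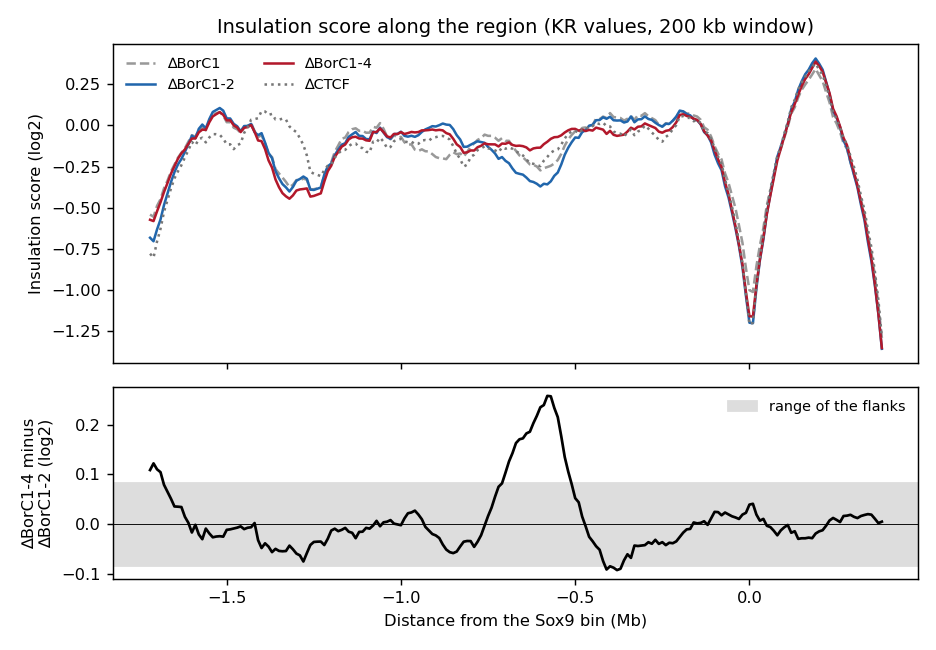
Insulation score along the region in the 4 libraries and the difference of ∆BorC1-4 minus ∆BorC1-2, by distance from the Sox9 bin in Mb; lower scores mean fewer contacts across that point, and the shaded band is the range of the difference in the flanks. The dip at the desert site, -0.36 in ∆BorC1-2, is shallow in ∆BorC1-4 at -0.10, while the dips at Sox9 and at the right domain edge keep their depth.

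A tile of 50 kb moved along the region showed where the side of preference turned. For the tile from 111.92 to 111.97 Mb, contacts with the region at least 200 kb to its left had a ratio of 0.875 (0.858 to 0.892). The ratio was 0.936 for the tile from 112.02 to 112.07 Mb, 1.07 for the next tile and 1.19 (1.17 to 1.21) for the tile from 112.22 to 112.27 Mb. Contacts with the right side ran the opposite way, from 1.15 at 111.77 to 111.82 Mb to 0.919 at 112.02 to 112.07 Mb and 0.866 (0.852 to 0.880) at 112.07 to 112.12 Mb. Flank tiles gave 0.852 to 1.05 for either side. The rises lie outside that span in 23 of the 72 values of the region, and none of the falls do.

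Contacts of the desert site with Sox9, Kcnj2 and the domain edge were counted between windows of 30 kb, and the windows at Kcnj2 (110.91 to 110.94 Mb) and at the domain edge (113.01 to 113.04 Mb) reach 1 bin beyond the region. Between the desert site and Sox9 (112.63 to 112.66 Mb) there were 1163 contacts in ∆BorC1-2 and 1067 in the deeper ∆BorC1-4. Observed over expected was 3.84 in ∆BorC1-2 and 2.39 in ∆BorC1-4, beside 3.57 in ∆BorC1 and 2.60 in ∆CTCF, and the ratio of ∆BorC1-4 to ∆BorC1-2 was 0.622 (0.572 to 0.676). On the balanced maps the levels were 2.64, 2.91, 1.83 and 2.05. The contact was thus high in ∆BorC1 and ∆BorC1-2 and lower in ∆BorC1-4 and ∆CTCF, and even there it was above the average for its distance.

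The desert site lost contact with the far edge of the Sox9 domain by a similar factor. With that edge it had 602 contacts in ∆BorC1-2 and 568 in ∆BorC1-4, and levels of 2.96, 3.37, 2.14 and 2.51 in ∆BorC1, ∆BorC1-2, ∆BorC1-4 and ∆CTCF, a ratio of 0.636 (0.567 to 0.714). With Kcnj2 it had 455 and 497 contacts. Those levels were 2.19, 3.14, 2.30 and 2.51, a ratio of 0.733 (0.646 to 0.832), so ∆BorC1-2 stood above all other libraries and ∆BorC1-4 was close to ∆BorC1. All 3 ratios are lower than each of 598 pairs of like windows in the flanks, which ran from 0.747 to 1.31 with 1st and 99th percentiles of 0.818 and 1.17. For Kcnj2 that order rests on the window size, since its ratio with the desert site was 0.793 (0.534 to 1.18) in 10 kb windows and 0.757 in 50 kb windows, sizes for which no flank range was computed.

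The contacts between the ends themselves moved less. Kcnj2 with Sox9 was 6.08 in ∆BorC1-2 and 5.73 in ∆BorC1-4, beside 4.65 in ∆BorC1 and 7.47 in ∆CTCF, a ratio of 0.942 (0.847 to 1.05). The corner search described below placed its windows at 110.92 to 110.95 Mb and 112.62 to 112.65 Mb. There the ratio was lower, 0.871 (0.785 to 0.965), and 0.860 (0.776 to 0.954) on the balanced maps. Both intervals lie below 1, and both ratios are inside the ranges of flank corners, 0.706 to 1.21 and 0.858 to 1.09. Sox9 with the domain edge was 3.19 in ∆BorC1-2 and 2.88 in ∆BorC1-4, a ratio of 0.903 (0.843 to 0.968) that is well inside the flank range. Another place in the desert, 880 kb left of Sox9 (111.75 to 111.78 Mb) and called the left site, had contact with Sox9 of 4.72 in ∆BorC1 but 2.85 in ∆BorC1-2, and this stood at 3.02 in ∆BorC1-4, a ratio of 1.06 (0.955 to 1.18). Its contact with the domain edge had a ratio of 1.11 (0.970 to 1.28). The intervals of both include 1, so no difference between ∆BorC1-2 and ∆BorC1-4 was detectable in these contacts with Sox9 and the edge, although rises of up to 1.18-fold and 1.28-fold lie within them.

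**Figure D4:**
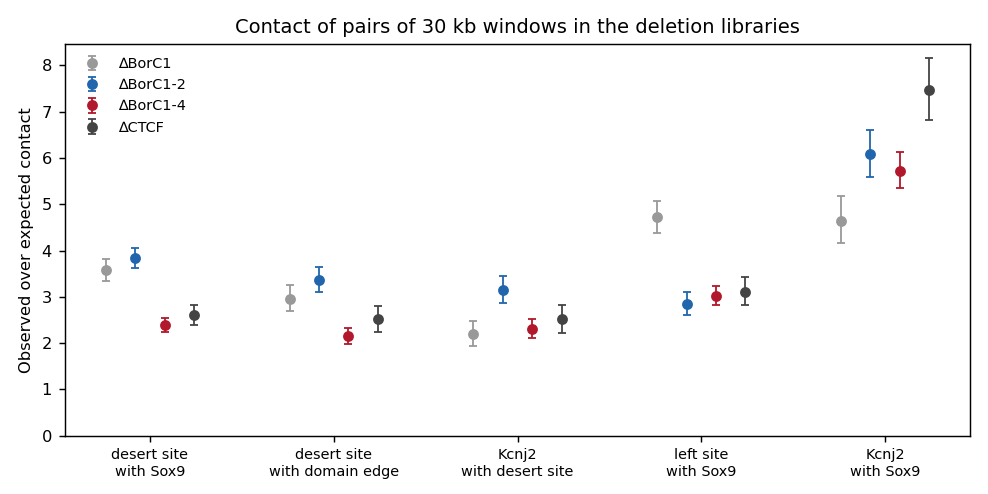
Observed over expected contacts (1 is the average for the distance) between named windows of 30 kb in ∆BorC1, ∆BorC1-2, ∆BorC1-4 and ∆CTCF, with bars for the 95% counting interval; the desert site and the left site lie 580 and 880 kb left of Sox9. The desert site with Sox9 is at 3.84 in ∆BorC1-2 and 2.39 in ∆BorC1-4, while the left site with Sox9 is at 2.85 and 3.02.

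At the resolution of single bins the loss of contact with Sox9 was deepest in the bin that starts at 112.07 Mb and spread over its neighbours. That bin had 476 contacts with the Sox9 window in ∆BorC1-2 and 381 in ∆BorC1-4, with observed over expected of 4.62 and 2.52 and a ratio of 0.545 (0.477 to 0.624). The next bins to its left had ratios of 0.627 and 0.710, and those to its right 0.838, 0.702 and 0.777, before the bin from 112.11 Mb with 0.970 (0.835 to 1.13). The same bin was lowest, at 0.551 (0.453 to 0.671), for the domain edge. A second low bin for the edge, from 111.97 Mb, had a ratio of 0.590 (0.471 to 0.740).

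Along the desert, few windows of 30 kb went lower than every flank window pair. For Sox9 these were 4 of 108 windows (3.70%), all between 112.04 and 112.10 Mb. For the domain edge they were 7 of 121 (5.79%), between 111.95 and 112.10 Mb. For Kcnj2 they were 6 of 121 (4.96%), in 3 places starting at 111.92, 112.05 and 112.46 Mb, and the lowest, from 111.93 to 111.96 Mb, went from 461 to 455 contacts and from 2.82 to 1.86, a ratio of 0.659 (0.579 to 0.750). No window rose above every flank pair for any of the 3. The Kcnj2 profile was lower over most of the desert: 86.0% of its windows were below 1, with a median of 0.909, while the Sox9 profile had 49.1% below 1 and a median of 1.00.

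**Figure D5:**
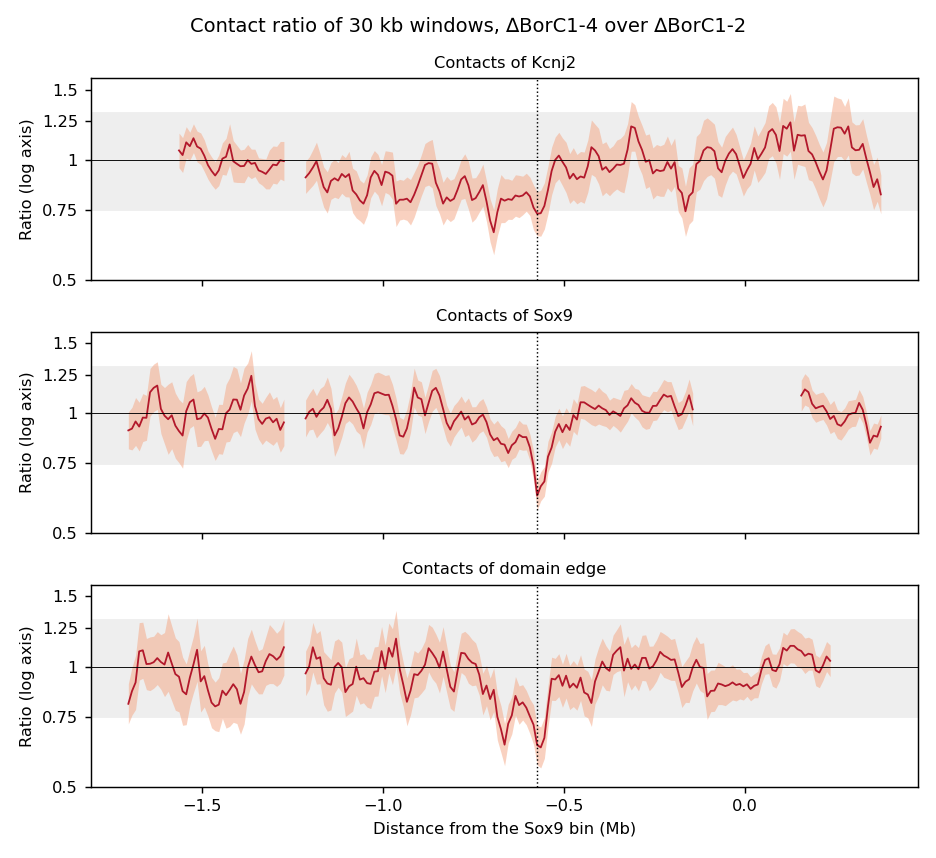
Ratio of observed over expected contacts in ∆BorC1-4 against ∆BorC1-2 (log axis) for Kcnj2, Sox9 and the right domain edge with windows of 30 kb along the region, by distance of the window from the Sox9 bin in Mb; red bands are 95% counting intervals and the grey band is the range of 598 window pairs in the flanks, 0.747 to 1.31. The line for Sox9 dips to 0.622 at the desert site (dotted, -0.58 Mb).

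Summed over zones, the profiles gave the same order. The Kcnj2 window with desert 2 went from 4708 contacts to 5729, and its observed over expected from 2.72 to 2.22, a ratio of 0.815 (0.784 to 0.847). With desert 1 the ratio was 0.880 (0.850 to 0.910), with desert 3 it was 0.955 and with the Sox9 side 1.03. The Sox9 window with desert 2 went from 3.34 to 3.05, a ratio of 0.912 (0.886 to 0.939), and was at 0.986 with desert 3 and 1.01 with desert 1. Flank windows with flank zones 300 to 900 kb away gave 0.899 to 1.14. The Sox9 value over the whole of desert 2 is inside this background, and the Kcnj2 values for desert 1 and desert 2 are below it. Most of desert 2 lies more than 900 kb from Kcnj2, where no flank values of this kind were taken. The left site was higher with desert 3, from 1.39 to 1.68, a ratio of 1.21 (1.18 to 1.24) that is above the background, and ∆BorC1 stood higher still at 1.90. The desert site with the Sox9 side went from 5877 to 7140 contacts and from 1.98 to 1.62, a ratio of 0.815 (0.787 to 0.844), and the domain edge with desert 2 from 3.16 to 2.76, a ratio of 0.873 (0.840 to 0.907). Both are below the background, but the whole of desert 2 lies more than 900 kb from the domain edge. The desert site with desert 2 (1.04) and with desert 3 (0.960) is inside the background, though those contacts include distances under 300 kb.

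Focal corners were also searched without regard to named places, as local maxima at least 1.5 times their surroundings with at least 100 contacts in each library. The region held 92, of which 3 were higher in ∆BorC1-4 by a log2 ratio of at least 0.32 (3.26%) and 5 lower by as much (5.43%). The flanks held 79, with 0 higher (0%) and 4 lower (5.06%), so the share of lower corners was at the background. The lowest joined 111.98 to 112.01 Mb with the 30 kb from 113.00 Mb, at 4.10 in ∆BorC1-2 and 3.10 in ∆BorC1-4, a ratio of 0.755 (0.680 to 0.837). Corners in the flanks ran from 0.706 to 1.21, so this fall is inside their range. The highest joined 111.83 to 111.86 Mb with 112.26 to 112.29 Mb, which rose from 660 to 1302 contacts and from 1.71 to 2.26, a ratio of 1.33 (1.21 to 1.46), and that place stood at 2.10 in ∆BorC1 and 2.17 in ∆CTCF. All 10 corners with an end at Kcnj2 had a ratio below 1, with a median of 0.863. The 26 corners with an end in the middle of desert 3 had a median of 1.06, and the intervals of 7 lay above 1 and of 0 below it. Medians for other ends were 0.894 at and left of the desert site (17 corners) and 0.924 at the domain edge (13). They were 0.994 at Sox9 (15) and 1.00 in the left part of desert 2 (12). Corners of a group share an end and are not separate observations, and no such groups were taken in the flanks. Over all 92 corners the median was 0.988, and 9.78% of intervals lay above 1 and 21.7% below it. In the flanks the median was 0.959 and 3 of 79 intervals lay above 1 and 17 below it (21.5%).

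The search depended on how even the bins were, since the balanced maps returned only 17 corners in the region. Of these, 8 had an interval below 1 (47.1%) and 0 an interval above 1, while of 26 such corners in the flanks 4 (15.4%) lay below and 2 above. The lowest ratios were at 111.96 to 111.99 Mb with the 30 kb from 113.00 Mb, 0.650 (0.578 to 0.731), and at 112.05 to 112.08 Mb with 112.62 to 112.65 Mb, 0.655 (0.606 to 0.708), the latter again the desert site with Sox9. Corners of the balanced maps in the flanks ran from 0.858 to 1.09.

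Whether DNA was missing was examined through the contacts of each bin relative to its neighbours. A bin that had lost most of its sequence would stand far below the others. The left-out bin at 111.39 Mb stood that low in each deletion library, for a reason that was not tested. Of the 208 bins of the region, 1 lay outside the range of the 311 flank bins (0.481%), and that bin was higher in ∆BorC1-4 by a log2 ratio of 0.08. The lowest was the bin from 112.07 Mb, in the desert site, with 28737 contacts in ∆BorC1-2 and 39810 in ∆BorC1-4 and a log2 ratio of -0.04, within the flank range of -0.10 to 0.06. A deletion much smaller than a 10 kb bin could not be seen in this way.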

How the data were processed

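Per the submitters' processing notes, the authors used Bowtie2 2.2.6, Juicer and the genome build mm9; how reads were filtered is not stated in these sources. For each library the authors deposited a raw map of read-pair counts per pair of 10 kb bins and a balanced map (KR) of the same pairs, a signal with no unit. Balanced values that were not a number (7 pairs in ∆BorC1-4, 0 in ∆BorC1-2, and 4 and 1 in ∆BorC1 and ∆CTCF) were left out. The other 4 libraries, of rearranged alleles, were not used here.

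The region is 110920001 to 113030000 on chromosome 11, the flanks 109010001 to 110600000 and 113350001 to 114880000, and zone limits lie at 111380000, 111410001, 111760000, 112060000 and 112640000. A place left of the desert site is one that starts before 112060000. Counts gave all values except insulation and those named as balanced. Expected counts were each library's mean at each distance over the whole map, without the 3 bins left out; pairs under 20 kb apart were not used. Ratios carry log-normal 95% intervals from counts, and single levels carry Poisson intervals. The log2 limit of 0.32 for blocks and corners is 1.25-fold. Named places are the 8 highest and 8 lowest blocks and corners, the zone pairs, the extremes of insulation outside the flank range, bins with coverage outside every flank bin, Kcnj2 and Sox9; of the blocks and corners the text gives some in full and the range of the rest. Other places and bins, the desert site among them, were chosen after their values were seen. Alternatives changed the map (KR), the source of expected counts, depth (∆BorC1-4 thinned to ∆BorC1-2), bins left out, block, window and ring sizes and contact minimums; those for pairs of named windows were added after seeing the data. The region, zones and windows were chosen with earlier results of these data known. The scripts were tested on simulated data and ran on scipy 1.17.1, pandas 2.3.3 and numpy 2.4.6 under Python 3.11.15, with figures from matplotlib 3.10.9.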

Additional observations from a re-analysis of the deposited data

Results flagged for a closer look

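The ∆BorC1-4 library held 8 contacts in the left-out bin at 111.39 Mb, where ∆BorC1-2 held 0. It was set apart because these contacts lie in a bin left out of the comparisons, except in the setting that leaves no bins out, and exceed the 3 counts that a count of 0 allows, without allowance for the greater depth of ∆BorC1-4. The bin held 4 contacts in ∆BorC1 and 1 in ∆CTCF.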

How the results depend on the processing

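Of 463 values under alternative settings, 359 stayed within the limit for their kind (for ratios the counting interval, for counts 1.5 times), 103 moved and 1 turned its direction: the Kcnj2 side with desert 3, from 1.05 to 0.994 (0.985 to 1.004) with expected values from the flanks. That last interval includes 1. Expected values from the flanks exist only for distances within a flank, so this setting leaves out the farthest pairs of the region, and 848 of 903 blocks remained. A turn was counted only where the interval of the value as reported excludes 1; 15 further ratios crossed 1 from an interval that includes it, such as Sox9 with desert 1, from 1.01 to 0.958 (0.926 to 0.991) with expected values from the flanks. The excess spread of 1.56 became 1.88 with 100 kb blocks and 1.95 with at least 500 contacts. The 35 higher blocks became 20 with expected values from the region, 4 with 100 kb blocks, 100 with 30 kb blocks and 0 past 1.5-fold. In the flanks the 2 higher blocks became 17 with at least 50 contacts. The 6 lower blocks became 3 on KR values, 10 with expected values from the region, 10 after thinning, 0 with 100 kb blocks, 34 with 30 kb blocks and 0 past 1.5-fold. With expected values from the region the Kcnj2 side with desert 2 was 0.885 and desert 2 with desert 3 was 1.11; from the flanks the latter was 1.14 and the Kcnj2 window with desert 2 was 0.778. In 10 kb windows Sox9 with desert 2 was 0.878 and the desert site with Sox9 was 0.496; in 50 kb windows the latter was 0.733. The insulation rise at the desert site was 0.19 in a 100 kb window, above a flank range of -0.10 to 0.13. The 3 higher corners became 0 on KR values, 8 with expected values from the flanks, 6 with no bins left out, 14 at the looser ring and 0 at a ring of 2. The 5 lower corners became 2, 9, 3 and 0 on KR values, with expected values from the region, after thinning and at a ring of 2. All 92 corners became 17 on KR values, 271 at the looser ring and 3 at a ring of 2. The causes were not tested. No paired analysis was possible because each genotype has 1 library, and for the same reason none could be left out. Depth limits single-bin values, some of which rest on under 200 contacts.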
